A study of Mus musculus with 12 samples.

Results

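Transcript levels in the medial prefrontal cortex (mPFC) on the side of a constricted sciatic nerve were compared with those in the mPFC of naive mice. All genes of the count table that passed a filter on low counts were members of the comparison, which left 15516 of 34745 genes, measured in 8 of the 12 libraries of the study. The mice were male, of WT genotype, and were sampled on day 28. One group of 4 libraries was the left mPFC after chronic constriction injury (CCI), in which the sciatic nerve is tied loosely so that it swells and a lasting neuropathic pain state develops; the labels call the left side ipsilateral. The other group was 4 libraries from naive mice, which had no treatment other than habituation to the same day. A further 4 libraries of the right (contralateral) mPFC of CCI mice are used here only to place the values. The labels give no sham operation, so operation and nerve injury cannot be told apart, and they give neither the age of the mice nor the hemisphere of the naive tissue. They do not say outright that libraries of a group came from separate mice, so p-values measure only the spread between these samples, which may in part be technical. Left and right libraries of one number were read as one mouse from their codes alone.

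The mPFC is a frontal cortical region of excitatory pyramidal neurons and local GABA interneurons, with projections to the amygdala, accumbens and brainstem. It takes part in the affective and evaluative side of pain and in descending pain control, and neuromodulators such as oxytocin, opioids, acetylcholine and serotonin act on its cells through receptors whose transcripts can be followed in bulk RNA.

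Total counts were 17.5 to 20.6 M (mega-counts) in ipsilateral and 16.8 to 17.8 M in naive libraries, and the mitochondrial genome gave 7.31 ± 0.19% of the counts in the former and 7.67 ± 0.54% in the latter (SD, n = 4 each). The deepest library was ipsilateral 2. Cortical excitatory markers (21 of 21 tested) and interneuron markers (24 of 25 tested) were present in every library, as the tissue label says: they summed to at least 6574 and 1993 CPM (counts per mega-count, scaled by TMM factors) in ipsilateral libraries. Choroid plexus markers summed to at most 12.7 CPM in ipsilateral and 10.7 CPM in naive libraries. Y-linked transcripts were detected in every library, as the label male says.

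In ipsilateral mPFC 7 genes passed a Benjamini-Hochberg adjusted p of 0.05 in edgeR's quasi-likelihood test, 0.0451% of the genes tested. Rsrc1 and Wdfy1 rose (2 genes, 0.0129%), and Ndst4, Pds5a, Oxtr, Atf2 and Abi3bp fell (5 genes, 0.0322%). They encode proteins of different kinds: an RNA splicing factor, an endosomal adaptor, a heparan sulfate enzyme, a cohesin regulator, a neuropeptide receptor, a transcription factor and a matrix protein. The unadjusted test was past 0.05 for 1168 genes (7.53%), 510 higher (3.29%) and 658 lower (4.24%), and 63 genes (0.406%) had a log2 fold change beyond 1 in either direction. The number of calls turned on the fit. With all 12 libraries sharing one estimate of the spread no gene passed and 763 had an unadjusted p under 0.05, while DESeq2 on the same 8 libraries called 58, these 7 among them. Without ipsilateral 2, edgeR called 17 genes.

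**Figure D1:**
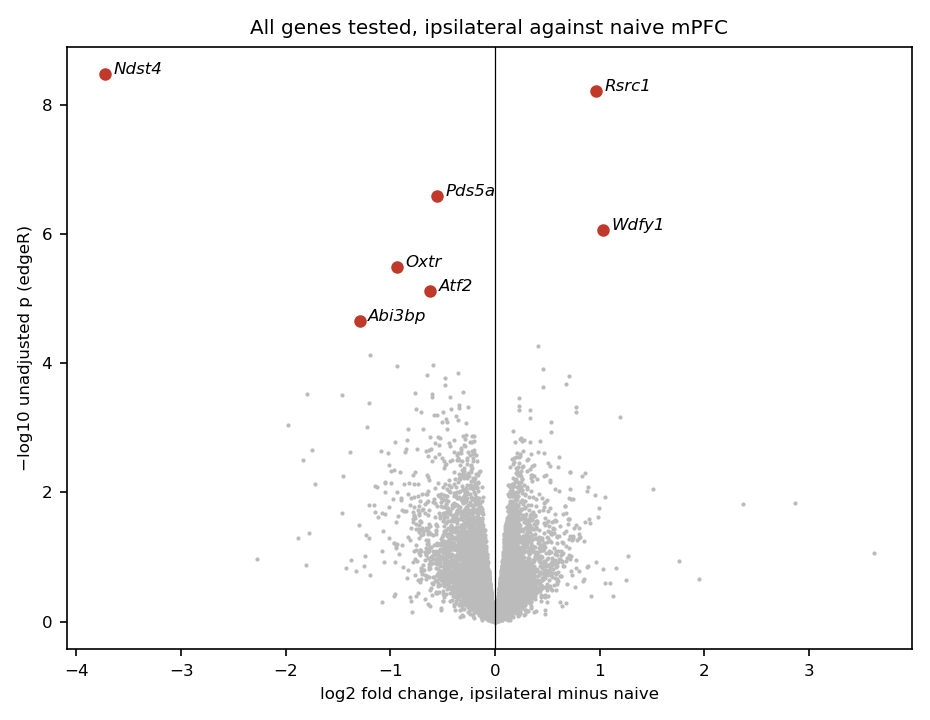
Log2 fold change of ipsilateral minus naive libraries (x axis) against −log10 of the unadjusted p of edgeR (y axis) for the 15516 genes tested, each a point. The 7 genes past the adjusted threshold are in red and named; Ndst4 lies at a log2 fold change of -3.73, the other called genes between -1.29 and 1.03.

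Ndst4 (ENSMUSG00000027971; chr3:125404076-125728899, GRCm38/mm10) encodes one of the enzymes that remove acetyl groups from growing heparan sulfate chains and replace them with sulfate, which sets where growth factors bind. Its level was 0.913, 1.65, 1.26 and 1.31 CPM in ipsilateral libraries 1 to 4 and 22.3, 12.4, 17.1 and 16.8 CPM in naive libraries 1 to 4. Every ipsilateral library was far below every naive one. The log2 fold change was -3.73 (SE 0.215, adjusted p = 4.74e-05). The contralateral libraries held 1.48, 1.5, 2.21 and 11.3 CPM, so that contralateral 4 alone approached the naive range. Among 21 genes of heparan sulfate synthesis, 1 was past an unadjusted p of 0.05 in the lower direction, Ndst4 itself, and 2 in the higher, the 3-O-sulfotransferase Hs3st4 (0.23) and the chain-elongation gene Extl1 (0.12); the background was 4.24% lower and 3.29% higher, and Hs3st4 and Extl1 did not pass after adjustment. The higher count was 1 without ipsilateral 1 or naive 4 and 4 without ipsilateral 2, and the lower one 2 without ipsilateral 4. The median log2 fold change of the list was 0.02, against -0.00094 for all genes tested. Ndst4 is the scarcest of its family here: on the length-scaled FPKM of the authors, naive libraries averaged 23.8 for Ndst1, 5.55 for Ndst2, 2.5 for Ndst3 and 1.03 for Ndst4. The log2 fold changes of Ndst1, Ndst2 and Ndst3 were 0.09, 0.04 and -0.13, none past the threshold.

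Rsrc1 (ENSMUSG00000034544; chr3:66981390-67358396), which encodes an arginine and serine rich protein that works in pre-mRNA splicing, was at 37.3, 40.2, 43.3 and 42.6 CPM in ipsilateral and 21.3, 20.4, 21.3 and 20.5 CPM in naive libraries. Naive libraries were almost level and all ipsilateral ones were higher. This was a log2 fold change of 0.96 (SE 0.0645, adjusted p = 4.74e-05). In contralateral libraries the gene took 2 levels, 20.5 and 20.0 CPM in numbers 1 and 3, as in naive mice, and 39.3 and 35.1 CPM in numbers 2 and 4, near the ipsilateral ones. Its model overlaps the end of Shox2, which had at most 0.114 CPM.

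Wdfy1 (ENSMUSG00000073643; chr1:79702262-79776143), an adaptor on early endosomes that links Toll-like receptors to their signalling partner, was at 52.0, 39.2, 38.3 and 50.3 CPM in ipsilateral and 22.5, 22.5, 19.8 and 22.8 CPM in naive libraries. All ipsilateral libraries were above all naive ones, numbers 1 and 4 highest. The log2 fold change was 1.03 (SE 0.106, adjusted p = 0.00335). All contralateral libraries were also above the naive range, at 54.7, 34.7, 38.5 and 49.8 CPM. Of 18 tested genes of endosomal Toll-like receptor signalling, 2 were higher at an unadjusted p under 0.05, Wdfy1 and the kinase gene Tbk1 (0.20), and 0 were lower; Tbk1 did not pass after adjustment. The median of the list was -0.03. Mrpl44, whose model overlaps the end of Wdfy1, had a log2 fold change of -0.06.

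Pds5a (ENSMUSG00000029202; chr5:65605721-65698273) encodes a protein that sits on the cohesin ring and regulates its release from chromatin. It was at 44.4, 45.1, 44.6 and 41.2 CPM in ipsilateral and 64.9, 65.9, 63.5 and 61.8 CPM in naive libraries. The groups were well apart and each was narrow. Its log2 fold change was -0.55 (SE 0.0519, adjusted p = 0.00132). Contralateral 1 to 3 were at 43.4, 42.2 and 42.8 CPM, within the ipsilateral level, and contralateral 4 was at 64.3 CPM, within the naive range. None of the other 12 tested cohesin genes was past an unadjusted p of 0.05; its close relative Pds5b had a log2 fold change of 0.01 and the release factor gene Wapl one of 0.10.

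Oxtr (ENSMUSG00000049112; chr6:112473683-112489943), the receptor for oxytocin, was at 5.19, 6.08, 5.91 and 4.67 CPM in ipsilateral and 10.3, 10.2, 9.75 and 11.6 CPM in naive libraries. The highest ipsilateral library stayed well under the lowest naive one. The log2 fold change was -0.94 (SE 0.113, adjusted p = 0.01). Contralateral libraries were at 6.39, 3.62, 8.96 and 10.6 CPM: number 2 lay below the ipsilateral range, number 1 just above it, number 3 between the groups and number 4 within the naive range. Of 29 tested receptors for monoamines, acetylcholine and oxytocin, 2 were lower and 2 higher at an unadjusted p under 0.05, with a list median of 0.04. The higher count was 1 without ipsilateral 2, naive 1 or naive 4, 4 without ipsilateral 3 and 5 without naive 2. The second lower one was the serotonin receptor Htr2c (-0.49); the higher ones were Chrna5 (0.72), an accessory nicotinic receptor subunit of deep cortical layers, and the serotonin receptor Htr6 (0.31). Htr2c, Chrna5 and Htr6 did not pass after adjustment.

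Atf2 (ENSMUSG00000027104; chr2:73816509-73892639), a transcription factor that pairs with Jun proteins and binds cyclic AMP response elements, was at 81.5, 68.7, 67.2 and 87.2 CPM in ipsilateral and 120, 110, 119 and 117 CPM in naive libraries. The groups did not overlap, and the ipsilateral libraries were spread more widely. Atf2 thus had a log2 fold change of -0.62 (SE 0.0807, adjusted p = 0.0195). Contralateral libraries were at 72.1, 127, 109 and 77.3 CPM, 1 and 4 in the ipsilateral range and 2 and 3 near the naive one. Leaving out ipsilateral 3, naive 1, naive 3 or naive 4 ended the call of Atf2, with adjusted p between 0.0512 and 0.122.

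Abi3bp (ENSMUSG00000035258; chr16:56477846-56690128), a secreted matrix protein, was at 9.47, 10.7, 9.47 and 10.4 CPM in ipsilateral and 26.8, 16.7, 23.3 and 31.1 CPM in naive libraries. The ipsilateral libraries were nearly level while the naive ones were spread, all above them. The log2 fold change was -1.29 (SE 0.169, adjusted p = 0.0496). Contralateral libraries were at 7.92, 11.6, 13.6 and 15.7 CPM, all below the naive range. The call lay at the threshold and ended under 6 of the 8 removals of a library, the exceptions being naive 2 and naive 4. Of 26 collagen and matrix genes 3 were lower at an unadjusted p under 0.05, Abi3bp, Thbs1 (-0.76) and Col5a2 (-0.43), and Col5a1 (0.20) was higher. Without ipsilateral 2, 5 were lower, and no gene was higher in 6 of the 8 removals, the exceptions being ipsilateral 4 and naive 2.

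**Figure D2:**
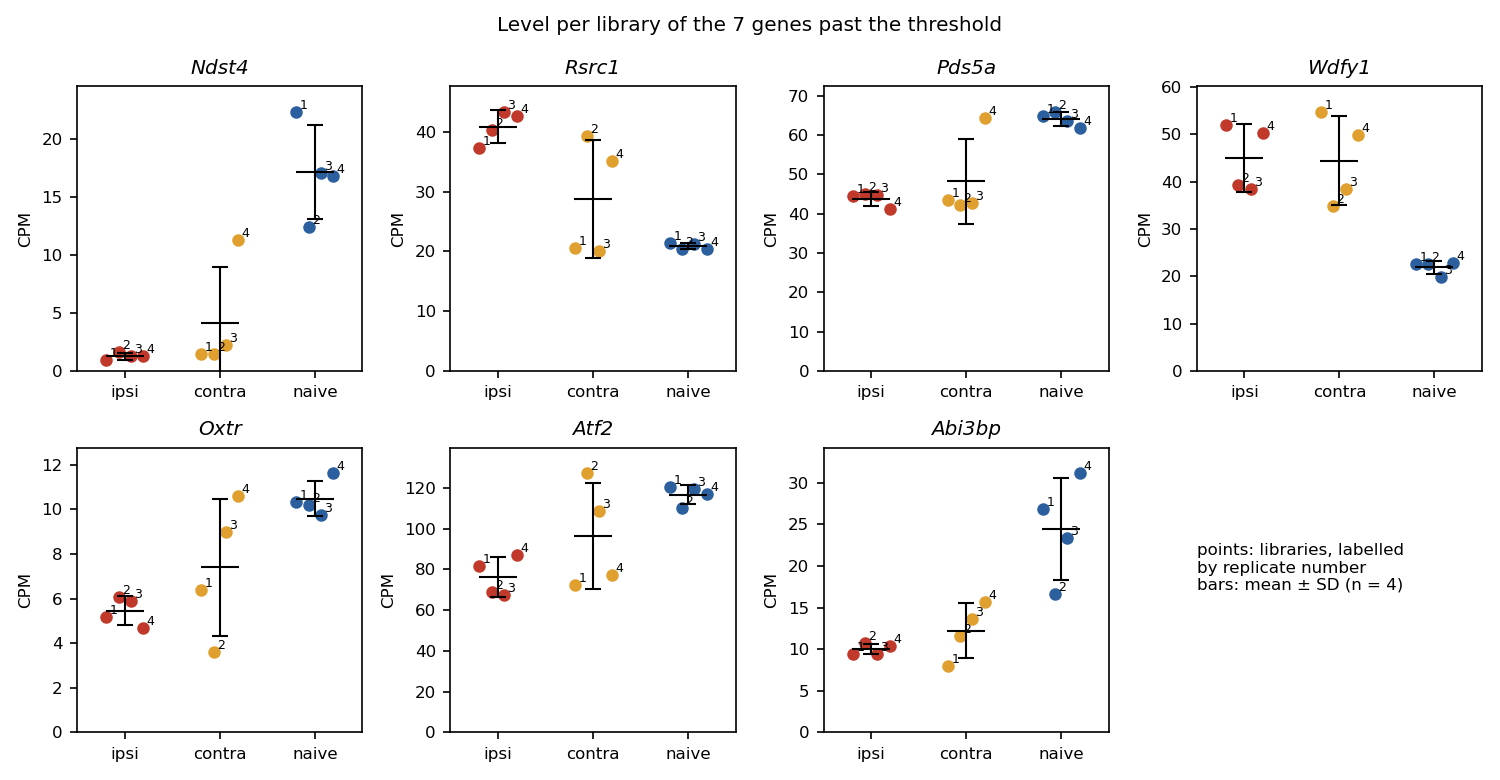
CPM per library (y axis, from 0) of the 7 genes past the threshold in ipsilateral, contralateral and naive mPFC; points are libraries labelled by replicate number, and bars give the mean ± SD (n = 4). Ipsilateral and naive libraries do not overlap for any of the 7, which the choice of genes by small p favours. Of all genes tested, 4.77% have groups that do not overlap. The contralateral libraries of Rsrc1, Atf2, Oxtr, Pds5a and Ndst4 reach into or toward both levels.

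The promoters of Pds5a, Oxtr and Atf2 are shown because each gene was called as lower in ipsilateral libraries and has 1 promoter entry in the reference. They are the 250 bases before the annotated start in RefSeq, build GRCm38.p6, all on the minus strand, at chr5:65698237-65698486, chr6:112489826-112490075 and chr2:73892640-73892889. By the gene coordinates given above, the Pds5a and Oxtr windows lie partly within the gene models that were counted. Capitals mark the GC box, GGGCGG on either strand, to which factors of the Sp family bind.
Pds5a: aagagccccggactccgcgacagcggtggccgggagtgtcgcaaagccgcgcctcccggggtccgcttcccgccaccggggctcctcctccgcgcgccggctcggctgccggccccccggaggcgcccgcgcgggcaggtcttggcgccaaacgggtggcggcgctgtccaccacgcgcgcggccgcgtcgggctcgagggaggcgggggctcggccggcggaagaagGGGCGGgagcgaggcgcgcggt
Oxtr: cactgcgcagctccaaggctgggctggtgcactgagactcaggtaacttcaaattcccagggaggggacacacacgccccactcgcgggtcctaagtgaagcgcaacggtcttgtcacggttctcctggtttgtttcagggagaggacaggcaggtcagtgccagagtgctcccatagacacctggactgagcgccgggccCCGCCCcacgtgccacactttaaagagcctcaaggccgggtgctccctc
Atf2: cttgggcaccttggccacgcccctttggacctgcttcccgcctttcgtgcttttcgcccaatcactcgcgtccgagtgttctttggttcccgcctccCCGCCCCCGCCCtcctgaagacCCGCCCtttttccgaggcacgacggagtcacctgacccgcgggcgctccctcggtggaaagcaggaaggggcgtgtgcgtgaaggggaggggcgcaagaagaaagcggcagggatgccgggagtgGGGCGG
The Pds5a and Oxtr windows each held 1 GC box and the Atf2 window 4, with GC contents of 80.4%, 61.6% and 67.2%. Of the 24 genes of smallest p, 17 had a promoter entry, 30 windows in all, since some genes have several. Some windows of 1 gene overlap, as for Sntg2 and Klhl13, so that a match can be counted more than once. A GC box was in 13 of the 30 windows (43.3%), and in 32.7% of the 32851 promoter windows of the reference. By gene, 10 of the 17 had a GC box in a window. The cyclic AMP response element TGACGTCA, which is its own reverse complement, was in 0 of the 30 and in 1.55% of all windows. The AP-1 element TGANTCA, searched on both strands, was in 1 of the 30 (3.33%) and in 6.75% of all windows. These matches describe the letters of the windows only.

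The next 17 genes in order of p did not pass after adjustment (adjusted p = 0.105 to 0.202) and are given as values. Ipsilateral and naive libraries did not overlap for any of them. Their choice by small p in the same comparison favours this, so it is no further evidence. Of all genes tested, 740 (4.77%) had groups that did not overlap, 328 higher (2.11%) and 412 lower (2.66%). Among genes of neuronal signalling, the nociceptin receptor gene Oprl1 was at 45.0, 46.7, 45.1 and 45.8 CPM in ipsilateral and 26.5, 33.8, 36.7 and 35.2 CPM in naive libraries, a log2 fold change of 0.46 (SE 0.0884). The ipsilateral libraries were almost equal and the naive ones were spread below them. Nmbr, the neuromedin B receptor gene, was at 2.05, 1.31, 0.918 and 1.88 CPM against 5.84, 2.65, 4.52 and 3.93 CPM, a log2 fold change of -1.47 (SE 0.284). Ndnf, a secreted factor that marks neurogliaform interneurons of layer 1, was at 9.3, 16, 16 and 12.9 CPM against 34.2, 27.3, 34.6 and 27.8 CPM, a log2 fold change of -1.19 (SE 0.171). The synaptic adhesion gene Lrrtm4 had 0.68, the dendritic gene Ddn -0.30, the neuronal calcium sensor Hpcal1 -0.48, and the calcium-binding membrane protein gene Cpne7 -0.65. Vwc2, a secreted antagonist of bone morphogenetic proteins, had 0.71.

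Of the remaining genes in this set, Fabp7, the fatty acid binding protein of astrocytes and radial glia, was at 7.59, 12.4, 9.01 and 7.57 CPM in ipsilateral and 15.7, 14.9, 17.2 and 14.5 CPM in naive libraries. Ipsilateral 2 stood closest to the naive group. Prelp, a matrix proteoglycan, had a log2 fold change of -0.59. The MHC class I gene H2-Q6 had -1.79 at 0.228 to 0.574 CPM against 0.892 to 1.61 CPM; its reads can be shared with near-identical neighbours of the Q region, so its level is uncertain. Trbc2, annotated as a T-cell receptor constant segment, had 0.42, at 21.8 to 24.5 CPM against 17 to 18.3 CPM; the T-cell marker Cd3e had at most 3 counts in a library, and Trbc2 has a near-identical copy. The myosin light chain gene Myl4 had 0.46, and Sntg2, Lmo7, Klhl13 and Filip1 had -0.93, -0.35, -0.48 and -0.60.

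**Figure D3:**
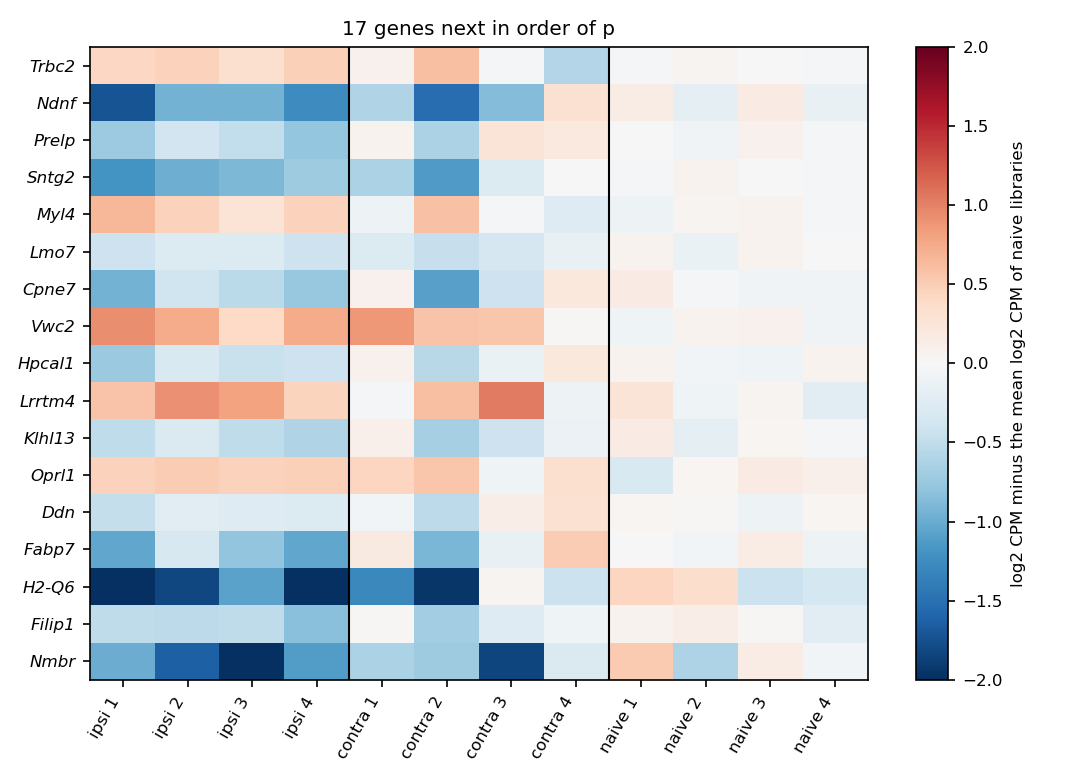
Log2 CPM minus the mean log2 CPM of the naive libraries (colour scale, limited to ±2) for the 17 genes that follow the called genes in order of p (rows) in the 12 libraries (columns). The ipsilateral libraries share a sign in every row, which the choice of genes by small p favours. Contralateral 2 resembles them in most rows, and contralateral 4 is closer to the naive libraries.

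Further genes had groups that did not overlap and the largest fold changes, among genes whose group means averaged at least 1 CPM. On the higher side they were Diap3 (0.86), an actin-nucleating formin, Chrnb3 (0.78), a nicotinic receptor subunit, Hcrtr2 (0.77), the orexin receptor 2, Plaur (0.72), the urokinase receptor, and Actrt3 (0.71). On the lower side they were Cdhr1 (-1.20), a cadherin of photoreceptors and mitral cells, Ankrd34b (-1.08), Fam179a (-1.02) and the small leucine-rich proteoglycan Ogn (-1.0). None passed after adjustment. For Ankrd34b, ipsilateral 2 held 24 CPM, next to the lowest naive library at 24.4 CPM, and the other ipsilateral libraries 8.33 to 9.93 CPM. Several of these genes were scarce. Diap3, Chrnb3, Hcrtr2 and Plaur averaged 2.27 to 3.07 CPM in ipsilateral and 1.28 to 1.79 CPM in naive libraries. Actrt3 averaged 0.756 CPM in naive and Ogn 0.741 CPM in ipsilateral libraries, so each met the filter only through its higher group.

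Neuronal identity genes had medians near 0. Of all genes tested, 3.29% were higher and 4.24% lower at an unadjusted p under 0.05, the background for this and later lists. Of 21 excitatory neuron markers 4 were higher and 0 lower at an unadjusted p under 0.05, among them Tle4 (0.23) and Fezf2 (0.14) of deep layers and Neurod6 (0.21). The list median was 0.02, and 19% of the list was higher. Without naive 2 or naive 4, 2 were higher; 2 were lower without ipsilateral 4 or naive 3, and 1 without naive 1. Of 24 interneuron markers 3 were higher and 2 lower, with a median of 0.004. Leaving out ipsilateral 2 gave 6 higher and 4 lower, and leaving out ipsilateral 1, ipsilateral 3 or naive 3 gave 1 higher. Pvalb, the calcium buffer of fast-spiking cells, was at 47.2, 32.1, 43.8 and 43.7 CPM in ipsilateral and 31.6, 35.9, 30.9 and 32.6 CPM in naive libraries, a log2 fold change of 0.34. Ipsilateral 2 overlapped the naive libraries, and without it Pvalb was among the 17 genes called. Npy had 0.22 and Gad1, which makes GABA, 0.12. Calb2 (calretinin) was at 9.13, 11.1, 10.9 and 9.57 CPM against 15.9, 15.2, 12.3 and 13.8 CPM, a log2 fold change of -0.50 with no overlap, and Dlx6os1 had -0.35. Sst and Vip had 0.09 and -0.21 and overlapped between the groups.

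Among genes of excitability, 27 of 36 voltage-gated channel genes had a positive log2 fold change, against 49.6% of all genes tested, with a median of 0.11. At an unadjusted p under 0.05, 5 were higher (among them Scn4b 0.38, Cacnb4 0.16 and Kcnh7 0.13) and Cacna1c, the L-type calcium channel, was lower (-0.21). The count of higher genes ranged from 1 to 9 when single libraries were left out: 9 without ipsilateral 2, 1 without ipsilateral 4 or naive 4, 2 without ipsilateral 1, naive 1 or naive 2, and 3 without ipsilateral 3. The lower count was 2 without ipsilateral 2, ipsilateral 4, naive 1 or naive 2. Of 27 glutamate receptor genes 5 were higher and 2 lower. Among the higher were Grm8 (0.34) and the kainate receptor genes Grik3 (0.27), Grik4 (0.20) and Grik5 (0.12). The kainate receptor gene Grik2 (-0.30) was among the lower. Grik3 was at 309, 276, 271 and 261 CPM in ipsilateral and 210, 232, 254 and 224 CPM in naive libraries, without overlap. Most of the glutamate receptor list went the other way: 17 genes were negative and 10 positive, with a median of -0.03. The higher share of the list was 18.5% and the lower share 7.41%, against 3.29% and 4.24% of all genes tested. The higher count of this list was 3 without ipsilateral 1 or naive 1. Of 19 GABA receptor and scaffold genes 3 were higher (among them Gabrg3 0.19 and Gabbr2 0.12) and 2 lower (Gabra2 -0.31, Gabrg1 -0.23). Without naive 3, 6 were higher, and without ipsilateral 1, ipsilateral 4 or naive 2, 1 was; the lower count was 1 in 6 of the 8 removals, the exceptions being ipsilateral 2 and naive 2. Of 32 synaptic vesicle and scaffold genes 3 were higher, Snap25 (0.10) among them, and Mdga1, a neuroligin-binding suppressor of synapse formation, was lower (-0.43; 11 to 13.6 CPM against 15.3 to 16.9 CPM). The higher count was 6 without ipsilateral 2, 5 without naive 3, 1 without ipsilateral 1, naive 2 or naive 4, and 0 without ipsilateral 4 or naive 1. None of these genes passed after adjustment.

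Opioid genes included 2 higher members of 16, Oprl1 and the delta receptor Oprd1 (0.33), and 1 lower, the enkephalin precursor Penk (-0.23). Oprd1 was at 36.6, 30.3, 35.5 and 32.6 CPM in ipsilateral and 20.1, 29.2, 29.6 and 28.1 CPM in naive libraries, with a narrow gap. The list had 1 higher gene without ipsilateral 1, and 2 lower without ipsilateral 2, 3 or 4 or naive 3. The mu receptor Oprm1 was near the limit of detection, at no more than 1.01 CPM in any of the 8 libraries. Penk also stands among 14 tested striatal genes, of which 4 were lower, Gpr6 (-0.87) and Adora2a (-0.51) among them; how much neighbouring striatum each dissection held was not tested. Of 17 neurotrophic factor genes, Gfra2 (0.19) and Nrg3 (0.17) were higher and the GDNF receptor Gfra1 (-0.29) and the neurotrophin receptor Ngfr (-0.82) lower; Bdnf had -0.08. The list had 1 higher gene in 6 of the 8 removals, the exceptions being ipsilateral 1 and naive 3. Of 19 glucocorticoid-responsive genes 5 were higher, Hsd11b1 (0.36), which regenerates corticosterone in the cell, Tsc22d3 (0.29), Zbtb16 (0.27), Klf9 (0.17) and Sgk1 (0.13), and Pdk4 (-0.36) was lower; Fkbp5, a target of the same receptor, had -0.03. The list median was 0.03, and the higher share was 26.3%, against 3.29% of all genes tested. The higher count was 2 without naive 2 and 3 without ipsilateral 1, 3 or 4, naive 1 or naive 3; the median was negative (-0.01) without ipsilateral 4 or naive 1. Without naive 3 or naive 4, 0 were lower.

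Markers of the non-neuronal cell types other than oligodendrocytes had negative median log2 fold changes, and in bulk tissue fewer cells of a type and less RNA per cell cannot be told apart. Of 18 meningeal and fibroblast markers 17 had a negative log2 fold change, with a median of -0.44, where 50.4% of all genes tested were negative. At an unadjusted p under 0.05, 7 were lower and 0 higher: Fmod (-1.23), Aldh1a2 (-1.07), Ogn (-1.0), Slc6a13 (-0.83), Dcn (-0.56), Ptgds (-0.46) and Col6a1 (-0.23). None passed after adjustment. The library score of the list, the mean over its genes of the centred log2 CPM, was -0.49, -0.49 and -0.44 in ipsilateral 1, 3 and 4, but 0.28 in ipsilateral 2, within the naive values of 0.11 to 0.64. Without ipsilateral 2 the median was -0.69, 12 members were lower and Fmod passed the adjusted threshold; without ipsilateral 3, ipsilateral 4 or naive 3, 4 were lower. The summed level was 429 to 533 CPM in ipsilateral and 556 to 624 CPM in naive libraries. Abi3bp, Prelp and Ogn are matrix genes that fibroblasts express. In ipsilateral 2 they were at 10.7, 10.8 and 1.02 CPM, for each gene the highest ipsilateral level. These levels were still below the lowest naive library, at 16.7, 13.4 and 1.17 CPM in the same order. The part of these cells in their values was not tested.

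All 7 tested blood cell genes were negative (median -0.39) and 5 were lower, 4 of them hemoglobin genes with near-identical copies (Hba-a1, Hba-a2, Hbb-bs and Hbb-bt, -0.36 to -0.52) and Lyz2 (-0.46). Lymphocyte and neutrophil markers on the list had at most 8 counts in a library. Among 13 mural and 18 endothelial markers, 10 and 15 were negative, with medians of -0.21 and -0.10 and with 2 and 1 lower at an unadjusted p under 0.05. Lower shares were 71.4% of blood cell, 15.4% of mural and 5.56% of endothelial genes, against 4.24% of all genes tested. Leaving out naive 4 left 2 of the blood cell genes lower, and leaving out ipsilateral 1, ipsilateral 4 or naive 2 left 3, with medians of -0.30 to -0.49 over the 8 removals. Of the mural markers 6 were lower without ipsilateral 2, 0 without ipsilateral 3, and 1 without ipsilateral 4, naive 2 or naive 4. Of the endothelial markers 4 were lower without naive 3, 2 without ipsilateral 1 or 3, and 0 without ipsilateral 4, naive 2 or naive 4.

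Of 22 microglial markers 19 were negative, with a median of -0.11. At an unadjusted p under 0.05, 6 were lower and 0 higher: Ly86, C1qb, Fcrls, Itgam, Cx3cr1 and C1qc (-0.17 to -0.27). The lower share was 27.3%, against 4.24% of all genes tested. Without naive 2 the lower count was 2, without ipsilateral 4 it was 3, and without naive 3 it was 8, with medians of -0.07 to -0.17 over the 8 removals. Cx3cr1, the fractalkine receptor, was at 52.7, 56.6, 55.1 and 54.8 CPM in ipsilateral and 65.3, 68.2, 59.3 and 58.4 CPM in naive libraries, without overlap. Aif1, which encodes the microglial stain Iba1, had 0.02. Of 26 interferon response and antigen presentation genes 22 were negative and 5 lower (19.2%), among them H2-Aa (-1.45), Tap1 (-0.65), Oasl2 (-0.53) and Ifitm3 (-0.46). H2-Aa was scarce, at 0.171 to 0.584 CPM in ipsilateral and 0.556 to 1.55 CPM in naive libraries, with overlap. Of 24 cytokine and chemokine genes 14 had enough counts to test, 0 were past an unadjusted p of 0.05, and Il1b, Il6 and Tnf had at most 10, 3 and 2 counts in a library, so a change in them was not detectable at this depth.

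Of 20 astrocyte markers 16 were negative (median -0.07) and 5 lower: the water channel Aqp4 (-0.36), Id4 (-0.33), the glutamate transporter Slc1a3 (-0.20), Gja1 (-0.18) and Clu (-0.12). The lower share was 25%, against 4.24% of all genes tested. Aqp4 was at 77.8, 89.1, 74.1 and 68.4 CPM in ipsilateral and 92.2, 99.8, 95.5 and 108 CPM in naive libraries, all ipsilateral values lower. Without naive 2 the astrocyte median was -0.01 and 11 were negative. Gfap, the marker of reactive astrocytes, was at 38.9, 55.0, 36.4 and 14.2 CPM against 52.7, 64.6, 54.7 and 50.1 CPM, with overlap. All 21 myelin genes were positive (median 0.18), yet 0 were past an unadjusted p of 0.05. Without ipsilateral 1 the median was 0.02 and 7 were negative; without ipsilateral 4, 3 were higher. Cldn11, a tight junction protein of myelin, was at 137, 100, 94.3 and 71.1 CPM in ipsilateral and 83.3, 96.5, 86.4 and 66.9 CPM in naive libraries. Ipsilateral 1 was well above the naive range, ipsilateral 2 just above it and the others within it.

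Genes of general cell function had medians close to that of all genes. Of 77 nuclear oxidative phosphorylation genes 61 were positive, with a median of 0.04; at an unadjusted p under 0.05, 3 were higher, Cox7b (0.16), Ndufv1 (0.12) and Ndufv2 (0.17), and Ndufa12 (-0.33) was lower. The higher count was 1 without ipsilateral 1 or ipsilateral 4, and the lower one 0 without ipsilateral 1, ipsilateral 3, naive 1 or naive 3. Of 13 genes of the mitochondrial genome 11 were negative, with a median of -0.05 and 0 past an unadjusted p of 0.05. Without naive 3 all 13 were negative and 6 were lower (median -0.09), without ipsilateral 3 1 was lower, and without naive 2 the median was -0.0059. Of 81 cytosolic ribosomal protein genes only Rps2 (-0.16) was past it, with up to 5 lower (without naive 3) and 2 higher (without ipsilateral 4) in the removals. Of 16 heat shock genes 0 were past it, with at most 1 in each direction in the removals. Of 19 circadian clock genes the output factor Dbp (0.23) and Nr1d2 (0.12) were higher and 0 were lower. Without ipsilateral 1 or 2, 4 were higher, and without ipsilateral 3 or naive 3, 1 was. Dbp was at 68.1, 65.6, 76 and 80.9 CPM in ipsilateral and 64.4, 62.3, 57.9 and 62.7 CPM in naive libraries, without overlap. Of 14 peroxisome import genes 1 was lower, Pex5, the receptor that carries enzymes into the organelle, at 47, 55.4, 43.5 and 48.5 CPM against 61.7, 62.5, 58 and 63.2 CPM, a log2 fold change of -0.34 with no overlap; it was called without ipsilateral 2. Of 22 DNA methylation and histone deacetylase genes 1 was lower, Hdac7 (-0.24). Of 13 perineuronal net genes 2 were lower, Crtac1 (-0.24) and Ptprz1 (-0.15), and of 14 oligodendrocyte precursor genes 0. None of these passed after adjustment.

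Markers of areas next to the mPFC were looked at as well. Of 6 tested olfactory genes, 5 were negative, with a median of -0.11; Cdhr1 was lower and Th (0.35) higher at an unadjusted p under 0.05. Of 8 claustrum and endopiriform genes 6 were negative, with a median of -0.14, and Lxn (-0.19) was lower. What such areas contribute to the values was not tested. The 5 tested choroid plexus and ependyma genes had a median of -0.31 with 0 past an unadjusted p of 0.05, and the 4 male sex-linked genes a median of -0.07 with 0 past it.

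**Figure D4:**
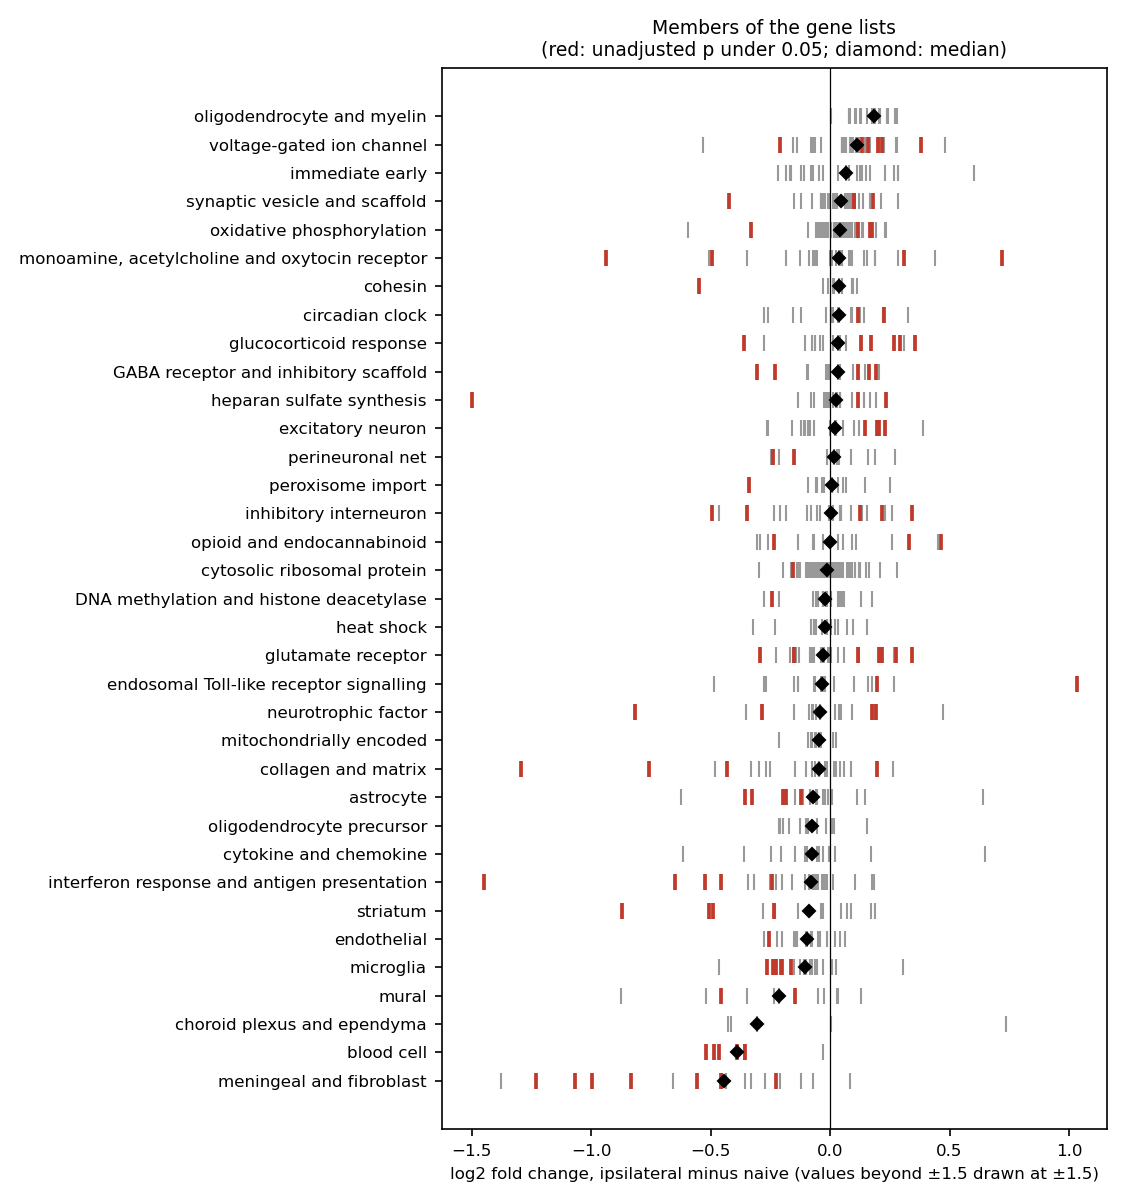
Log2 fold change of ipsilateral minus naive libraries (x axis) for the tested members of 35 gene lists (rows, ordered by median); grey ticks are genes, red ticks have an unadjusted p under 0.05, black diamonds are list medians, and Ndst4 is drawn at the left edge of the axis. Medians run from -0.44 for meningeal and fibroblast markers to 0.18 for myelin genes, and most lists lie within 0.1 of 0.

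Immediate early genes, which neurons transcribe within minutes of activity, were spread over the libraries of both groups, more widely in naive ones. The list scores ran from -0.26 to 0.42 in ipsilateral and from -0.68 to 0.58 in naive libraries. Fos was at 20.9, 39.1, 43.3 and 64.8 CPM in ipsilateral and 8.28, 27.9, 37.7 and 80.1 CPM in naive libraries, and Arc at 77.7, 144, 202 and 275 CPM against 47.6, 120, 172 and 379 CPM. In both groups the library numbered 1 was lowest and the one numbered 4 highest, for both genes. Of 25 genes 14 were positive, the median was 0.07 and 0 were past an unadjusted p of 0.05. Without naive 4 the median was 0.30 and 2 were higher, and without naive 1 it was -0.15 and 1 was lower. What the numbers stand for, such as an order of collection, is not given in the labels.

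**Figure D5:**
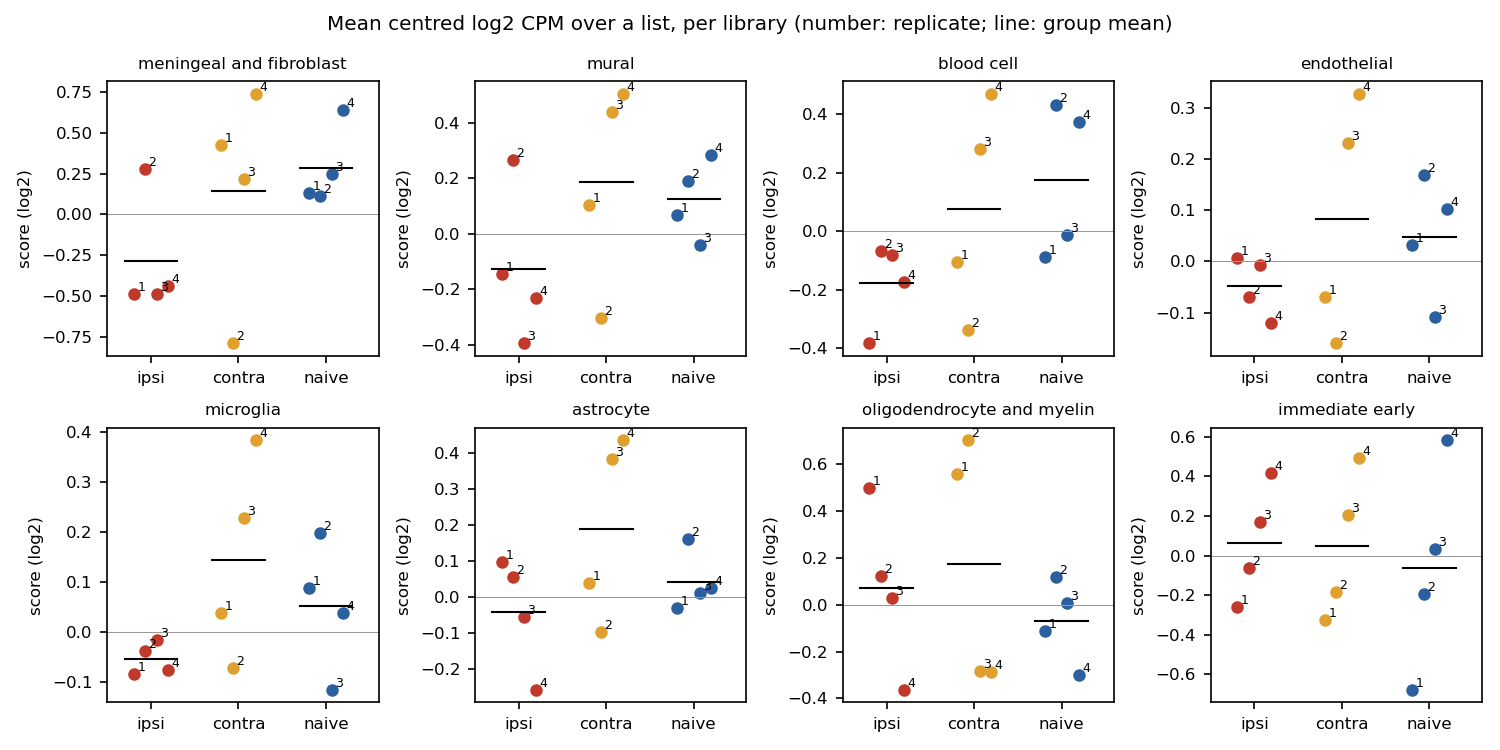
Score per library (y axis: mean over a list's tested genes of log2 CPM, centred on the mean of ipsilateral and naive libraries) for 8 lists in the 3 groups; points are labelled by replicate number, lines are group means. Ipsilateral 2 stands at 0.28 in the meningeal panel against -0.49 to -0.44 for the others, and the immediate early panel orders by number in each group.

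The contralateral libraries bear on whether these values belong to one side. They share the naive libraries as controls, so the comparisons with naive are not independent, and ipsilateral was compared with contralateral directly. No gene passed in 15526 tested by edgeR (927, 5.97%, at an unadjusted p under 0.05), and DESeq2 called 3. For the called genes with a direct value, log2 fold changes of ipsilateral minus contralateral libraries were -1.68 for Ndst4, 0.51 for Rsrc1, -0.14 for Pds5a, 0.02 for Wdfy1, -0.44 for Oxtr, -0.34 for Atf2 and -0.28 for Abi3bp, and none passed. Against naive, contralateral libraries had -2.04, 0.46, -0.41, 1.02, -0.50, -0.27 and -1.0 in the same order. The contralateral libraries differed among themselves: of the 24 genes of smallest p, contralateral 2 was nearer the ipsilateral than the naive mean in 22, contralateral 1 and 3 in 11 each, and contralateral 4 in 4. The meningeal median was 0.02 for contralateral minus naive and -0.51 for ipsilateral minus contralateral, and contralateral 2 had the lowest meningeal score of all, -0.79. Contralateral 1 had a striatal score of 1.34, where the other 11 libraries had -0.13 to 0.18, and contralateral 4 an excitatory neuron score of -0.26, where the others had -0.09 to 0.09. The mitochondrial share was 8.66% in contralateral 3 and 9.28% in contralateral 4. The part of these differences in the contralateral values was not tested. Without contralateral 2, 12 genes passed between the sides, none of them among the 7.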

How the data were processed

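Messenger RNA of mouse mPFC was sequenced; the authors deposited one table of raw counts per gene and library with FPKM values beside them. The counts that the authors deposited were used for every test. The FPKM values that the authors deposited, scaled by gene length and library total, served only to compare levels between genes. HISAT2 2.0.4 and the build GRCm38/mm10 are named in the submitters' processing notes. How reads were counted, with which strand setting and annotation, is not given in the sources used here. Gene coordinates were taken from the table.

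Genes were handled by identifier, since 27 symbols had become dates. Of 34745 genes, 11491 had 0 counts in every library. Ipsilateral and naive libraries (4 and 4) were fitted with edgeR 4.0.16 in R 4.3.3 (TMM, filterByExpr, robust quasi-likelihood, Benjamini-Hochberg adjusted p under 0.05, two-sided). A standard error is the absolute log2 fold change over the square root of F. CPM use TMM factors over all 12 libraries; scores use log2 CPM with a prior count of 2. Ipsilateral and contralateral libraries were fitted in the same way. Limma 3.58.1 (voom), DESeq2 1.42.0, other scalings and filters, a replicate block, a fit of all 12 libraries and leaving out each library were alternatives. No 2 libraries of a group agreed within sampling noise.

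The members, the 35 gene lists, the 8-library fit and the alternatives were chosen with earlier results of these data known; 3 further lists (olfactory, claustrum, male sex-linked genes) were added after values were seen. The genes named are the called genes filled up to 24 by smallest p (predicted models left out), and per list the members past the threshold or else 3 of smallest p. Added to these are the 8 highest and 8 lowest log2 fold changes among genes whose groups do not overlap and whose group means average at least 1 CPM. Further named are Aif1, Arc, Bdnf, Fkbp5, Fos, Gad1, Gfap, Mbp, Oprm1, Pvalb, Sst and Vip. Other list members, and genes set beside a called one, were named after their values were seen. Some genes that these rules name are left out here.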

Additional observations from a re-analysis of the deposited data

Results flagged for a closer look

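Within the groups of 4, 128 sets of values (depth, mitochondrial share, named genes and list scores) were looked at for one library far from the rest, which chance alone gives in about 5% of sets; 12 were found. In ipsilateral libraries, number 2 had a total count of 20.65 M against 17.52 to 17.87 M, and a meningeal and fibroblast score of 0.2782 against -0.4878 to -0.4361. Ipsilateral 3 had a mitochondrial share of 7.589% against 7.18 to 7.239%, an interneuron score of 0.09416 against -0.05342 to -0.03254, and a choroid plexus and ependyma score of 0.3459 against -0.2193 to -0.1394. Ipsilateral 4 had Pds5a at 41.23 CPM against 44.44 to 45.08 CPM, Filip1 at 5.352 CPM against 6.662 to 6.732 CPM, and a cytokine score of -0.1597 against -0.01053 to 0.01553. In naive libraries, number 3 had Wdfy1 at 19.8 CPM against 22.5 to 22.8 CPM and Ddn at 1103 CPM against 1205 to 1223 CPM. Naive 1 had a heat shock score of -0.02882 against 0.03077 to 0.03112 and a collagen and matrix score of 0.0051 against 0.09645 to 0.1024. For Pds5a, Wdfy1, Filip1 and Ddn the ipsilateral and naive ranges were apart with these libraries included. The choice of these genes by small p favours this, so it is no further evidence. Of all genes tested, 4.77% had groups that did not overlap.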

How the results depend on the processing

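For ipsilateral against naive, edgeR called 7 genes. DESeq2 called 58 (18 higher, 40 lower), and the fit of all 12 libraries 0, with adjusted p of the 7 from 0.178 to 0.865; the cause was not tested. Voom, RLE and upper-quartile factors called 6 each, all among the 7; no filter and a filter at 1 CPM called 7 each. Leaving out single libraries gave 6 to 17 calls, 17 without ipsilateral replicate 2; Ndst4, Rsrc1, Pds5a, Wdfy1 and Oxtr passed in all 8 removals. Over all genes tested, the deviations of samples of one number had correlations of -0.08, -0.08, -0.02 and 0.12, not all over 0.1, so the numbers were not used to pair the samples, although immediate early scores were ordered by number in each group. With the replicate block 6 genes passed, 5 of them among the 7; Oxtr (adjusted p = 0.139) and Abi3bp (adjusted p = 0.185) did not. With it, 16 of 25 immediate early genes were positive (median 0.12) and 0 past an unadjusted p of 0.05. For ipsilateral against contralateral, edgeR called 0 genes, also with the replicate block; DESeq2 called 3, and leaving out single libraries gave 0 to 12, 12 without contralateral 2 and 1 each without ipsilateral 1 or ipsilateral 3. Log2 fold changes that turned sign were all of genes not past the threshold in that comparison. Arc had 0.17 with the replicate block and 0.18 with voom, against -0.04. Over removals of single libraries the ranges were -0.36 to 0.62 for Arc, -0.21 to 0.77 for Fos, -0.10 to 0.15 for Aif1, -0.67 to 0.012 for Oprm1, -0.15 to 0.0073 for Bdnf, -0.10 to 0.20 for Mbp, -0.048 to 0.99 for Ttr and -0.094 to 0.0080 for Eif2s3y. Between the sides they were -0.084 to 0.12 for Wdfy1, -0.19 to 0.033 for Pds5a and -0.091 to 0.0082 for Lmo7. Cytokine and other genes removed by the filter on low counts, Il1b, Il6 and Tnf among them, were too scarce to compare at this depth.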
